A study of Homo sapiens with 6 samples.

Results

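The semaphorins, plexins and neuropilins were examined in LN229, an established human glioblastoma cell line. Members were the genes whose symbol starts with SEMA and a digit, those named PLXNA to PLXND, and NRP1 and NRP2, with antisense symbols left out. This gave 31 of the 28265 genes in the files: 20 semaphorins, 9 plexins and 2 neuropilins. RNA was sequenced in 6 libraries, 3 of cells with the genotype label WT (the control group) and 3 of cells labelled TRIM25 knockdown. All cells were LN229 grown in the same serum-containing medium, and the series design names a short hairpin RNA against TRIM25. The sample titles mark the WT cells NC, which is not spelled out, and the labels do not say whether these cells carried a control hairpin, whether the hairpin cells were 1 clone, or whether the libraries within a group are from cultures grown separately, and each p-value therefore speaks only of how far these libraries spread.

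Semaphorins are signalling proteins that share a large amino-terminal sema domain. Those of class 3 are secreted, those of classes 4 to 6 span the membrane, and SEMA7A is held on the surface by a lipid anchor. Plexins are their receptors and carry a GTPase-activating domain for small Ras-family GTPases in the cytoplasm, through which they loosen integrin adhesion and reshape the cytoskeleton. Most class 3 semaphorins bind a neuropilin, a co-receptor with a short cytoplasmic tail that also binds vascular endothelial growth factors, while the plexin supplies the signal. The family was first described in axon guidance, and in gliomas its members are studied for their part in migration, invasion and vessel growth.

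TRIM25, the targeted gene, had 561, 493 and 563 counts in the controls and 964, 905 and 1443 in the others. It was 2.34-fold higher in the libraries labelled knockdown (edgeR quasi-likelihood test, adjusted p = 3.23e-09), so the target goes against the label. Every direction below sets the libraries labelled knockdown against the control libraries and is not to be read as a response to loss of TRIM25 mRNA. Whether the 2 group labels were exchanged was not tested, and if they were, every rise and fall given here would turn. Total counts ranged from 11349865 to 16404725 per library, and the members took between 0.207% and 0.220% of them. Labelled knockdown replicate 1 stood apart from the other libraries on the second principal component. Of 10 glial and glioma markers, VIM, NES, CD44, SOX2 and S100B were abundant, while GFAP, AQP4 and CHI3L1 stayed under 1 TPM (the authors' unit scaled by transcript length). Of the 7 tested, 1 rose and 3 fell: NES had a log2 fold change of 0.27, SOX2 one of -0.66, OLIG2 one of -0.67 and S100B one of -0.33. Endothelial cells and leukocytes carry many semaphorins and plexins, and their defining markers were near 0: PECAM1, CDH5 and PTPRC had at most 6, 3 and 9 counts in any library and AIF1 had 0. The summed level of the 6 endothelial markers was 3.24 to 3.92 TPM in the controls and 2.54 to 3.87 TPM in the others. That of the 7 leukocyte markers was 72.1 to 76.7 and 99.4 to 118.4 TPM, nearly all of it CD68, which rose by 0.49 on the log2 scale. Among 6 neuronal markers SYT1 rose (0.27) while SNAP25 (-0.38) and GAD1 (-0.35) fell, and their sum was 78.4 to 81.4 and 68.8 to 75.3 TPM. Among 5 fibroblast and pericyte markers RGS5 rose (0.50) while DCN (-1.17), COL1A1 (-0.56) and PDGFRB (-0.37) fell, and their sum was 60.8 to 64.4 and 55.7 to 63.7 TPM. Neither of the 2 tested epithelial markers passed, and the sum of all 5 was 167.5 to 180.9 and 182.8 to 200.0 TPM. What part these markers have in the members' differences was not tested.

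Of the 31 members, 28 had enough counts to be tested, and 14 of these passed an adjusted p of 0.05: in the libraries labelled knockdown 6 were higher and 8 were lower. This is 50.0% of the members tested, where 23.3% of all tested genes passed (12.2% higher, 11.0% lower). The members that rose were the receptors NRP2, PLXNA1 and PLXNB1 and the ligands SEMA3C, SEMA3D and SEMA7A. Those that fell were SEMA4B, SEMA4C, SEMA4D, SEMA4F, SEMA5A, SEMA6B and SEMA6D and 1 receptor, PLXNB3. The groups did not overlap in 16 members (6 higher, 10 lower), or in 37.3% of all genes tested (18.3% higher, 19.0% lower). NRP2, PLXNA1, SEMA3C, SEMA4B, SEMA4D, SEMA6B and SEMA6D, 7 in all, passed in every fit that left out 1 library, and the other 7 lost their call in at least 1 such fit. Without control replicate 2 or labelled knockdown replicate 2 only 3 members rose, and without control replicate 1 or labelled knockdown replicate 2 only 4 fell. Over all genes 930 and 1002 rose, and 1440 and 866 fell, in the same fits, against 1753 and 1577 with all 6 libraries. Without labelled knockdown replicate 1, the library that stood apart, 7 rose and 9 fell, where 33.8% of all genes passed. The median log2 fold change of the 28 was -0.11, beside -0.0038 for all genes tested. In bulk RNA a lower level in each cell and fewer expressing cells cannot be told apart.

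**Figure D1:**
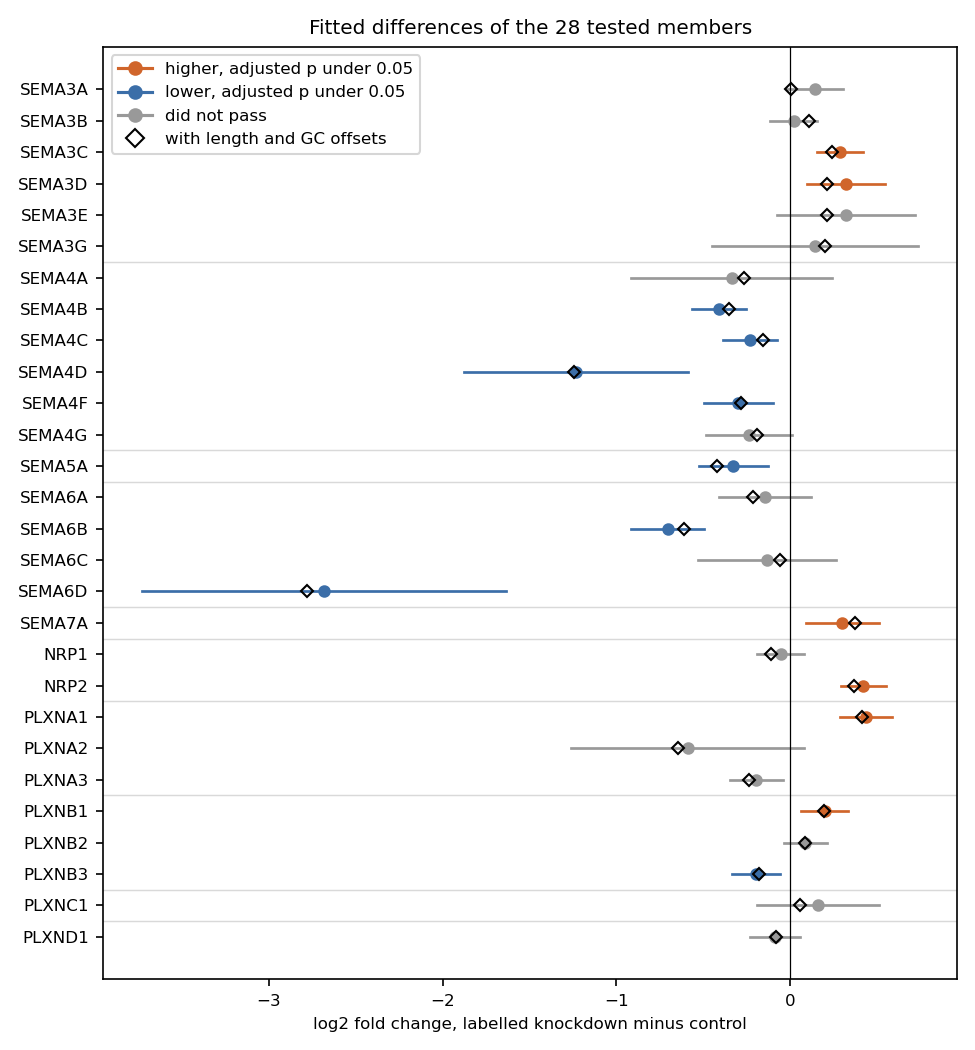
Log2 fold change (labelled knockdown minus control) of the 28 tested members with 95% intervals, grouped by class, with open diamonds for the fit that carries length and GC offsets. The tested class 3 semaphorins lie to the right of 0 and the tested ones of classes 4 to 6 to the left. SEMA6D (-2.68) and SEMA4D (-1.23) lie farthest from 0. SEMA3F of class 3, lower by its summed counts, had too few counts to be tested and is not shown.

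Since members changed at the RNA level, the bases before the RefSeq start are shown for 4 of those that passed in every fit that left out 1 library. They are the receptors NRP2 and PLXNA1, which rose, and the ligands SEMA4D and SEMA6D, which had the largest falls. The sequences are from RefSeq on GRCh38.p14, another build than the files use, 5′ to 3′ on the strand of the gene, and each holds the 250 bases before the first start listed for that gene. Capitals mark CACGTG, the E-box bound by MYC, and GGGCGG or its reverse complement, the GC box bound by SP1.
NRP2, chr2:205682251-205682500, strand +: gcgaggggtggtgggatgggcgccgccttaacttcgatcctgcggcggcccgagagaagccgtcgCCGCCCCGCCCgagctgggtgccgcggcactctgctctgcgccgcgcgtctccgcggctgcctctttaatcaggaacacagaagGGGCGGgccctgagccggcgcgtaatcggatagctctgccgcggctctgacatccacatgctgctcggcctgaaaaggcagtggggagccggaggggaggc
PLXNA1, chr3:126982865-126983114, strand +: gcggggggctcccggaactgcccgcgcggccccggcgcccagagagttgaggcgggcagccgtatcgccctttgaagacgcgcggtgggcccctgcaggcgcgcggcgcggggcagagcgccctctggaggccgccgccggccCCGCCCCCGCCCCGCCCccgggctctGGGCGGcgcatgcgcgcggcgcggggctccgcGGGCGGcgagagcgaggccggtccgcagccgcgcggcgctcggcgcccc
SEMA4D, chr9:89495657-89495906, strand -: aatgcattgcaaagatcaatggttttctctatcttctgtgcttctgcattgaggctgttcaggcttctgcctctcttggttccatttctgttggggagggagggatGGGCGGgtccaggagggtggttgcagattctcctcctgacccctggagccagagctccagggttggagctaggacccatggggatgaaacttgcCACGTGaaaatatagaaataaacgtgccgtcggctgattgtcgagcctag
SEMA6D, chr15:47183839-47184088, strand +: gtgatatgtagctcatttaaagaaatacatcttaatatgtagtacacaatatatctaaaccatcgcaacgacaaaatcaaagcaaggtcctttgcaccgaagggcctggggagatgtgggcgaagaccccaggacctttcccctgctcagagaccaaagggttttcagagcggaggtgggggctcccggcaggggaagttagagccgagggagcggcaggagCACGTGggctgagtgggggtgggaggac
NRP2 held 3 GC boxes and 29 CpG dinucleotides in this window, and PLXNA1 held 5 and 46, with overlapping boxes counted singly. SEMA4D held 1 E-box and 1 GC box, and SEMA6D held 1 E-box, while its other 2 listed starts held no E-box. The 4 windows do not stand for all members: at the first start, GC boxes stood before 3 of the 6 members that rose and 6 of the 7 that fell and had an entry, and E-boxes before 0 and 2. These counts depend on the start taken. At a later listed start PLXNB1 and SEMA3C, which rose, held 5 and 3 GC boxes, and SEMA6D, which fell, held 2. None of them had a GC box at the first start. RefSeq promoters were matched for 27 of the 31 members, with 48 starts between them. An E-box stood before 3 of the 48 starts (6.25%), against 6.34% of 35116 starts in the whole table. A GC box stood before 30 of them (62.5%), against 42.6% of all starts, and the TATA box TATAAA before 1 (2.08%), against 10.7%. The windows of these 48 starts were also richer in GC (median 64.8%, against 58.0% over all starts) and in CpG (median 15 against 11). What part this has in the share with a GC box was not tested. All motifs were searched on both strands. These are matches of letters in 1 window, and the files do not show which start LN229 cells use.

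Neuropilins are the ligand-binding co-receptors. NRP2, which binds SEMA3F and SEMA3C and also VEGFC, had 3705, 2936 and 3276 counts in control replicates 1 to 3 and 3308, 3353 and 4960 in labelled knockdown replicates 1 to 3. Scaled to library size this was 217.8 ± 13.5 CPM (counts scaled to 1000000 per library; mean ± SD, n = 3) against 292.1 ± 14.8 CPM, and the groups did not overlap. NRP2 rose 1.34-fold (0.42 ± 0.06 on the log2 scale, SE; adjusted p = 9.99e-05 by edgeR). NRP1, the co-receptor of SEMA3A and of VEGFA, had 2424, 2013 and 2250 counts and then 1550, 1680 and 2397. Its groups overlapped, at 146.9 ± 5.12 and 141.5 ± 10.8 CPM (mean ± SD, n = 3), and its log2 fold change of -0.05 (95% interval -0.19 to 0.08) did not pass (edgeR adjusted p = 0.592). The NRP2 to NRP1 ratio of TPM was 0.880, 0.840 and 0.838 in the controls and 1.23, 1.15 and 1.19 in the libraries labelled knockdown. NRP1 was thus the more abundant neuropilin in each control library and NRP2 in each library labelled knockdown. An exact two-sided permutation test of this ratio gave p = 0.1, the smallest that 3 against 3 libraries allow. It is 1 of 3 ratios tested, all chosen after their values were seen. Any ratio whose groups do not overlap gives this p, so these tests add nothing to the values.

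The A plexins are the signalling partners of neuropilins and of class 6 semaphorins. PLXNA1 had 885, 748 and 830 counts in the controls and 957, 798 and 1144 in the libraries labelled knockdown, or 54.1 ± 1.58 and 73.5 ± 5.41 CPM (mean ± SD, n = 3). The 3 libraries labelled knockdown lay above all controls, and PLXNA1 rose 1.36-fold (0.44 ± 0.07 on the log2 scale, SE; adjusted p = 2.62e-04 by edgeR). PLXNA3, a second receptor for class 3 semaphorins, moved the other way without passing, from 61.0 ± 1.43 to 53.5 ± 4.78 CPM (mean ± SD, n = 3; log2 fold change -0.19, edgeR adjusted p = 0.0661), although its groups did not overlap. It passed with length and GC offsets (adjusted p = 0.00150) and without labelled knockdown replicate 1 (adjusted p = 0.00488). The PLXNA1 to PLXNA3 ratio of TPM lay between 1.04 and 1.09 in the controls and between 1.59 and 1.73 in the others. This ratio too was chosen after its values were seen (exact two-sided permutation p = 0.1, again the smallest possible). PLXNA2 was rare, at most 26 counts in a library, with a log2 fold change of -0.59 and an interval from -1.26 to 0.08. PLXNA4 was not tested, with 2, 2 and 1 counts and 0, 1 and 1.

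B plexins bind class 4 semaphorins and signal to RHOA through guanine nucleotide exchange factors. PLXNB1, the main receptor of SEMA4D, rose from 80.2 ± 3.44 to 92.1 ± 2.81 CPM (mean ± SD, n = 3), from counts of 1290, 1145 and 1207 to 1144, 1031 and 1466. The groups did not overlap, but the rise was small (0.20 ± 0.06 on the log2 scale, SE; adjusted p = 0.0310 by edgeR). That call was lost without any single control replicate and without labelled knockdown replicate 2 (adjusted p up to 0.164). PLXNB3, a receptor of SEMA5A, had the most TPM of any plexin and fell from 5782, 4802 and 5556 counts to 4172, 3342 and 4681, or from 354.5 ± 8.11 to 310.0 ± 32.7 CPM (mean ± SD, n = 3). Its log2 fold change was -0.19 ± 0.07 (SE; edgeR adjusted p = 0.0415), and the call was kept in only 1 of the 6 fits without a library, that without labelled knockdown replicate 1 (adjusted p up to 0.201 in the other 5). The exons of PLXNB3 overlap those of the kinase gene SRPK3 by 1432 bp on 1 strand, so some reads could belong to either gene. SRPK3 had between 32 and 79 counts and was also lower (log2 fold change -0.54, edgeR adjusted p = 0.0350), a call kept in 3 of the 6 fits without a library. What part shared reads have in this was not tested. PLXNB2, the receptor of SEMA4C and SEMA4G, stood at 251.4 ± 9.78 and 267.4 ± 14.6 CPM (mean ± SD, n = 3) and did not pass (log2 fold change 0.09, 95% interval -0.03 to 0.21). The PLXNB3 to PLXNB2 ratio of TPM lay between 1.68 and 1.76 in the controls and between 1.35 and 1.49 in the others. It was likewise chosen after its values were seen (exact two-sided permutation p = 0.1, the smallest possible).

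PLXND1, the receptor of SEMA3E, had 832, 703 and 775 counts in the controls and 557, 556 and 785 in the libraries labelled knockdown. Its groups overlapped in CPM, with a log2 fold change of -0.08 (95% interval -0.23 to 0.06; edgeR adjusted p = 0.393). PLXNC1, the receptor of SEMA7A, was much rarer, with 73, 56 and 57 and then 47, 51 and 84 counts. Its log2 fold change of 0.16 had an interval from -0.19 to 0.51 (edgeR adjusted p = 0.514). PLXNC1 shares 177 bp of exon with CEP83 on the opposite strand, and the strand setting of the counting is not given in the sources used here. CEP83 was higher (log2 fold change 0.32, edgeR adjusted p = 0.0458), a call kept in 1 of the 6 fits without a library.

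Class 3 semaphorins are secreted. Of the 7 genes 6 were tested, 2 rose and none fell, where 12.2% of all genes tested rose and 11.0% fell. All 6 fold changes lay above 0, as did 49.2% of all genes tested. SEMA3B was at -0.0044 without control replicate 1 and at -0.037 without labelled knockdown replicate 1, and SEMA3G at -0.013 without control replicate 3. SEMA3C, which acts through NRP1, NRP2 and PLXND1, had 4620, 3889 and 4296 counts in the controls and 3740, 3994 and 5969 in the others. It rose from 281.5 ± 9.41 to 343.6 ± 28.5 CPM (mean ± SD, n = 3) without overlap (1.22-fold; 0.29 ± 0.06 on the log2 scale, SE; adjusted p = 0.00314 by edgeR). SEMA3D, a ligand of NRP1, rose from 188, 162 and 158 counts to 161, 173 and 219, or from 11.2 ± 1.04 to 14.1 ± 1.08 CPM (mean ± SD, n = 3). This was 0.32 ± 0.11 on the log2 scale (SE; edgeR adjusted p = 0.0370), and the call was lost without control replicate 2 or 3, without labelled knockdown replicate 2 (adjusted p up to 0.183) and with length and GC offsets (adjusted p = 0.105).

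SEMA3B, a ligand of both neuropilins, had the most TPM of all members and its groups overlapped, with 3580, 3174 and 3901 counts in the controls and 3105, 2642 and 3608 in the others. Its log2 fold change was 0.02 (95% interval -0.11 to 0.16; edgeR adjusted p = 0.838), and 0.11 with length and GC offsets, where it passed (adjusted p = 0.0190). SEMA3A, the classic axon-repelling ligand of NRP1, stood at 87.8 ± 5.72 and 96.8 ± 9.77 CPM (mean ± SD, n = 3; log2 fold change 0.14, edgeR adjusted p = 0.191). SEMA3A passed without labelled knockdown replicate 1 (log2 fold change 0.23, adjusted p = 0.00656), while its log2 fold change was 0.0062 with length and GC offsets. SEMA3E, a ligand of PLXND1, and SEMA3G, a ligand of NRP2, were rare, with at most 98 and 25 counts in a library and log2 fold changes of 0.32 and 0.15 that did not pass. Without labelled knockdown replicate 1 SEMA3E passed, at 0.51 (adjusted p = 0.0223). SEMA3F, which binds NRP2, had too few counts to be tested over the 6 libraries: it had 6, 9 and 11 counts and then 2, 2 and 6. By its summed counts it was 2.28-fold lower in the libraries labelled knockdown, with an exact 95% interval for counting error alone from 1.06 to 5.30. It entered the test without labelled knockdown replicate 1 or 2 and did not pass (edgeR adjusted p = 0.208 and 0.264).

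Class 4 semaphorins span the membrane and mostly bind B plexins. None of the 6 rose and 4 fell, and all 6 fold changes were below 0. Of all genes tested 12.2% rose, 11.0% fell and 50.8% had a fold change below 0. SEMA4B, the most abundant of the class, had 1400, 1220 and 1417 counts in the controls and 896, 736 and 999 in the others. At 88.7 ± 0.825 and 67.0 ± 6.88 CPM (mean ± SD, n = 3) the groups were well apart, a 1.33-fold fall (-0.41 ± 0.07 on the log2 scale, SE; adjusted p = 7.28e-04 by edgeR). SEMA4D, the ligand of PLXNB1 that can be shed from the cell surface, had 33, 30 and 21 counts in the controls and 7, 11 and 13 in the libraries labelled knockdown. It fell 2.35-fold (log2 fold change -1.23, 95% interval -1.87 to -0.59; edgeR adjusted p = 0.00767). With so few counts the ratio of the summed counts, 2.38-fold lower, had an exact counting interval from 1.56 to 3.71.

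SEMA4C, a ligand of PLXNB2, fell from 587, 487 and 603 counts to 377, 346 and 524, or from 36.8 ± 1.42 to 31.4 ± 0.784 CPM (mean ± SD, n = 3; -0.23 ± 0.07 on the log2 scale, SE; adjusted p = 0.0323 by edgeR). SEMA4F, a class 4 gene expressed in the nervous system, fell from 308, 256 and 284 counts to 201, 168 and 230, or from 18.6 ± 0.705 to 15.2 ± 1.36 CPM (mean ± SD, n = 3; -0.30 ± 0.09 on the log2 scale, SE; adjusted p = 0.0308 by edgeR). Neither gene's groups overlapped. The SEMA4C call was lost without any single control replicate, without labelled knockdown replicate 2 (adjusted p up to 0.140) and with length and GC offsets (adjusted p = 0.0678). That of SEMA4F was lost in all fits without 1 library (adjusted p up to 0.129) except that without labelled knockdown replicate 1. SEMA4A and SEMA4G had log2 fold changes of -0.34 and -0.24 with intervals that include 0. SEMA4G shares 1170 bp of exon with MRPL43 on the opposite strand, a gene with 507 to 727 counts against 106 to 177 for SEMA4G. MRPL43 did not pass (log2 fold change 0.02, edgeR adjusted p = 0.906).

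Class 5 semaphorins span the membrane and carry thrombospondin repeats. SEMA5A, a ligand of PLXNB3, had 719, 520 and 556 counts in the controls and 356, 341 and 557 in the others. It fell from 39.4 ± 5.22 to 31.3 ± 2.48 CPM (mean ± SD, n = 3) without overlap (-0.33 ± 0.09 on the log2 scale, SE; adjusted p = 0.0195 by edgeR). The call was lost without control replicate 1, where the log2 fold change was -0.21, or labelled knockdown replicate 2 (adjusted p up to 0.115). SEMA5B was barely detected, with 0, 1 and 1 counts in the controls and 0 in the 3 others, which allows a level of up to 0.0754 CPM (3 counts of 39805581 over the group, counting error only).

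Class 6 semaphorins span the membrane and bind A plexins, and 2 of the 4 fell, where 11.0% of all genes tested did. SEMA6B, a ligand of PLXNA4, had 377, 287 and 409 counts in the controls and 186, 158 and 227 in the libraries labelled knockdown. It fell 1.63-fold from 23.5 ± 2.54 to 14.5 ± 0.894 CPM (mean ± SD, n = 3; -0.70 ± 0.10 on the log2 scale, SE; adjusted p = 7.77e-05 by edgeR). Its receptor PLXNA4 had at most 2 counts in a library. SEMA6D, a ligand of PLXNA1, had 26, 22 and 13 counts in the controls and 1, 1 and 6 in the others, the largest change of any member. The log2 fold change was -2.68 (95% interval -3.73 to -1.64; edgeR adjusted p = 9.53e-04). The summed counts, 61 against 8, gave a level 6.69-fold lower, with an exact counting interval from 3.19 to 16.2. Without labelled knockdown replicate 3, which held 6 of those 8 counts, the log2 fold change was -3.83. SEMA6A and SEMA6C, ligands of PLXNA2 and PLXNA1, had log2 fold changes of -0.14 and -0.13 that did not pass, and SEMA6C was at 0.055 without control replicate 3.

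SEMA7A, the lipid-anchored class 7 semaphorin that binds PLXNC1 and the integrin subunit ITGB1, had 253, 217 and 278 counts in the controls and 268, 238 and 291 in the others. It rose from 16.4 ± 1.02 to 20.4 ± 2.30 CPM (mean ± SD, n = 3) without overlap (0.30 ± 0.10 on the log2 scale, SE; adjusted p = 0.0363 by edgeR). The call was lost without control replicate 1 or 2 and without labelled knockdown replicate 1 or 2 (adjusted p up to 0.135).

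**Figure D2:**
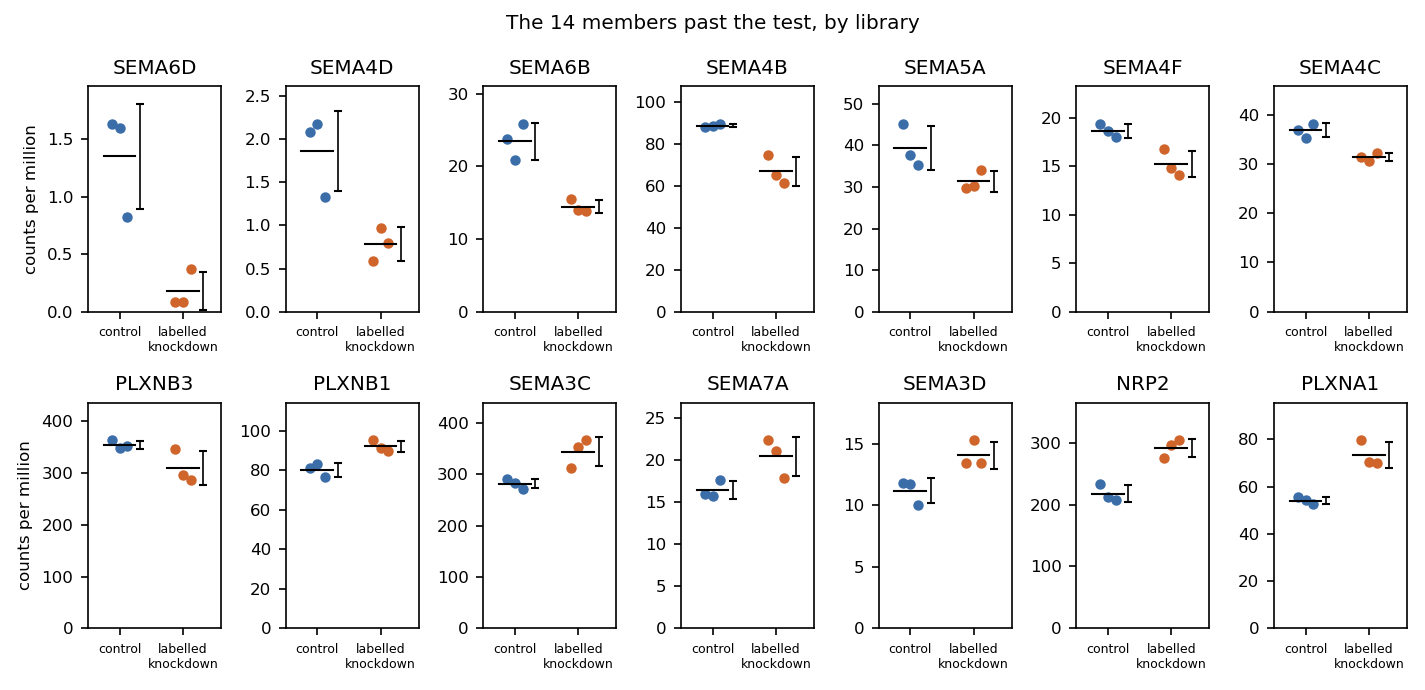
CPM (TMM-scaled, linear axes from 0) in each library for the 14 members past the test, ordered from the largest fall (SEMA6D) to the largest rise (PLXNA1), with the mean as a line and the SD as a bar (n = 3). The groups do not overlap in any of the 14 panels, while the gap is narrowest for PLXNB3, SEMA7A and SEMA5A.

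Over the membrane-spanning classes 4 to 6 together, 7 of 11 tested genes fell and none rose, and all 11 fold changes lay below 0. Over all genes tested 11.0% fell, 12.2% rose and 50.8% had a fold change below 0. This grouping, like the count of class 3 genes above 0, was chosen after the values were seen. Only in the fit without control replicate 3 was 1 of them above 0. The median log2 fold change was -0.33 for these classes and 0.22 for the tested class 3 genes. SEMA3F, the class 3 gene not tested, went the other way by its summed counts (2.28-fold lower, counting interval from 1.06 to 5.30). Summed over genes, class 3 semaphorins stood at 371.3, 358.5 and 358.4 TPM in the controls and at 398.6, 422.1 and 428.0 TPM in the others. Classes 4 to 6 together stood at 141.8, 132.1 and 136.8 TPM and at 112.6, 107.0 and 108.3 TPM. The ratio of the first to the second was 2.65 ± 0.0547 in the controls and 3.81 ± 0.236 in the libraries labelled knockdown (mean ± SD, n = 3), with no overlap. Class 3 made up 70.8% ± 0.451 and 76.8% ± 1.22 of all semaphorin TPM (mean ± SD, n = 3). The sum over all semaphorins was 1.06 times as high in the libraries labelled knockdown, at 542.2 ± 11.8 against 512.6 ± 11.9 TPM without overlap. That over all plexins overlapped, at 332.3 ± 13.8 against 327.8 ± 14.7 TPM (mean ± SD, n = 3). TPM is not on the CPM scale of the tests, and between the groups the 2 scales shift by the same factor for every gene. NRP1, for example, had 68.8 TPM in the controls and 68.7 TPM in the others, but 146.9 and 141.5 CPM. What part this shift has in the differences between summed TPM was not tested. Ratios and shares within a library do not carry it. These sums follow the abundant genes: SEMA3B and SEMA3C held 63.4% ± 0.462 of semaphorin TPM in the control libraries (SD, n = 3).

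**Figure D3:**
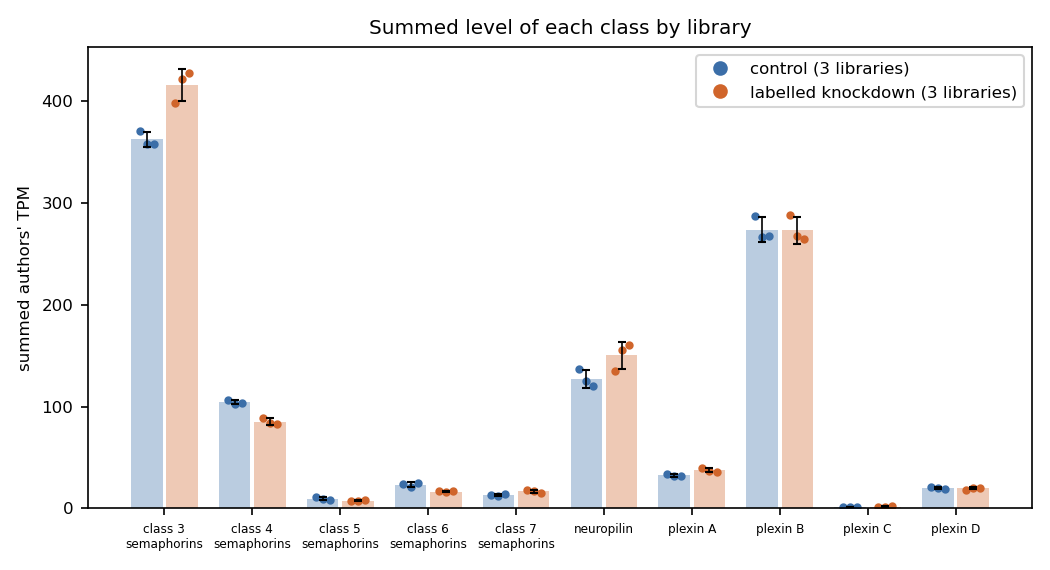
Summed TPM of each class (linear axis from 0) in the control and labelled knockdown libraries, with bars at the mean, points for the libraries and error bars of 1 SD (n = 3). Class 3 stands at 362.7 and 416.2 TPM, class 4 at 104.4 and 85.3 TPM, and B plexins at 273.8 and 273.5 TPM. TPM is not on the CPM scale of the tests.

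Per length, the order of levels was led by SEMA3B at a mean of 185 TPM over the 6 libraries, SEMA3C at 163.8 TPM and PLXNB3 at 146.5 TPM, whose ranges overlapped from one to the next. PLXNB2 (94.2 TPM), NRP2 (70.1 TPM) and NRP1 (68.8 TPM) followed, apart from PLXNB3 but overlapping each other in turn. SEMA4B (52.8 TPM) lay below NRP1 and above PLXNB1 (32.9 TPM), SEMA3A (32.1 TPM) and SEMA4C (26.3 TPM) in range. Its range overlapped that of NRP2, which it exceeded in control replicates 2 and 3. From PLXND1 (19.9 TPM) and PLXNA1 (19.9 TPM) the levels ran down through SEMA7A, PLXNA3, SEMA6B, SEMA5A, SEMA4F and SEMA4G to SEMA3D (5.69 TPM), each overlapping the next. SEMA6A, SEMA6C (2.74 TPM), SEMA3E (1.75 TPM), PLXNC1 (1.59 TPM) and SEMA4A were lower again. SEMA3G, SEMA4D, SEMA3F, SEMA6D, PLXNA2, PLXNA4 and SEMA5B were all under 1 TPM. The members with the 2 largest fold changes, SEMA6D (0.279 TPM) and SEMA4D (0.506 TPM), were thus among the rarest, while among the 6 with the most TPM the largest fold change was the 1.34-fold rise of NRP2.

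**Figure D4:**
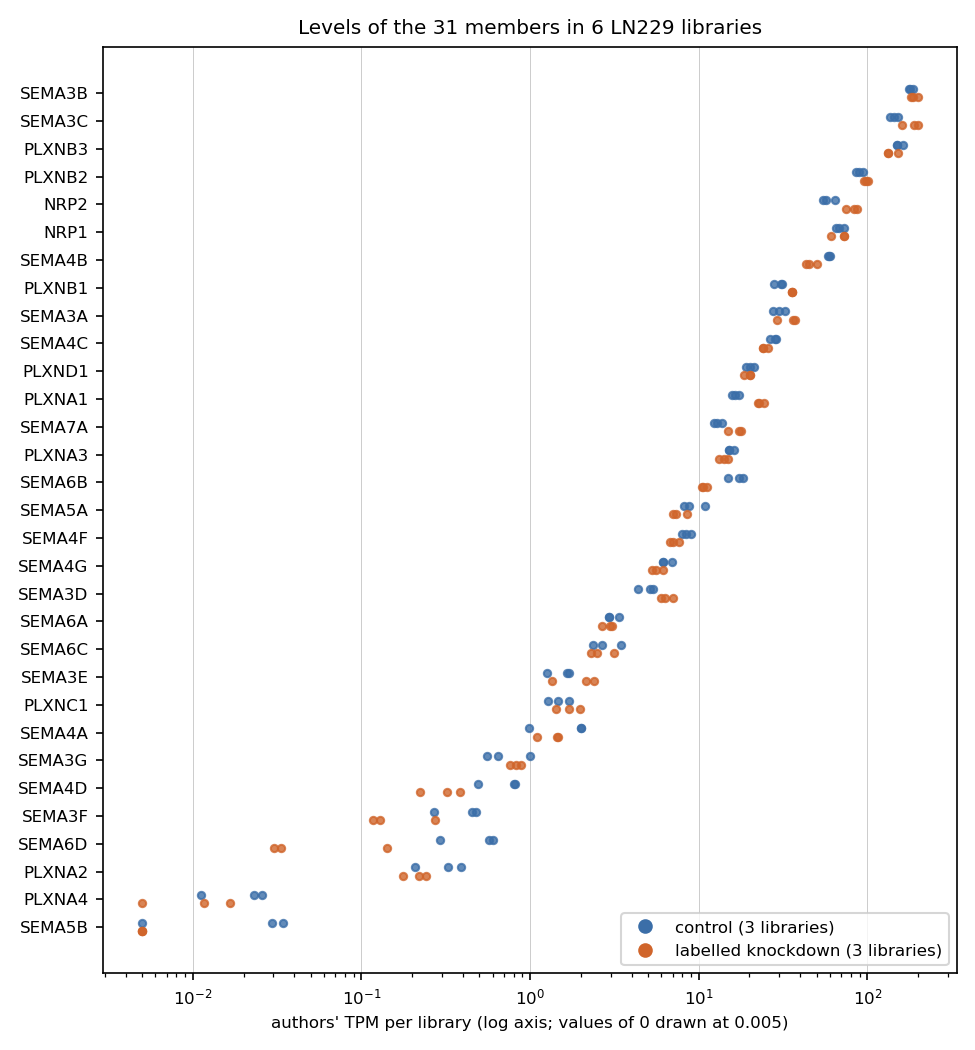
The authors' TPM of all 31 members in each of the 6 libraries (log axis), ordered by mean level, with controls in blue and libraries labelled knockdown in orange. SEMA3B, SEMA3C and PLXNB3 lie above 100 TPM in every library, and SEMA5B and PLXNA4 lie at 0 or at most at 0.0343 and 0.0259 TPM.

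Ligands were then set beside their receptors, in 31 pairs taken from general knowledge, with ITGB1 as the non-plexin receptor of SEMA7A. In 25 pairs both genes were tested, and in 5 both passed. Taken singly, 50.0% of the tested members and 23.3% of all genes tested passed, and the pairs share genes. Of the genes in these 5 pairs, PLXNB1 and SEMA7A kept their call in 2 of the 6 fits without a library. PLXNB3 kept it in 1 and SEMA5A in 4, and the others in all 6. In SEMA3C with NRP2 both were higher, as in SEMA7A with ITGB1, which rose by 0.28 on the log2 scale. SEMA5A and its receptor PLXNB3 were both lower. In 2 pairs the ligand fell and the receptor rose: SEMA4D (-1.23) with PLXNB1 (0.20), and SEMA6D (-2.68) with PLXNA1 (0.44). In both of these the ligand was far rarer than the receptor, at 0.506 TPM against 32.9 TPM and at 0.279 TPM against 19.9 TPM. Pairs in which neither gene passed included SEMA3A with NRP1, SEMA3B with NRP1, SEMA3E with PLXND1 and SEMA4G with PLXNB2. Of the receptors of SEMA3C, NRP2 rose, while NRP1 and PLXND1 had log2 fold changes of -0.05 and -0.08 and did not pass.

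**Figure D5:**
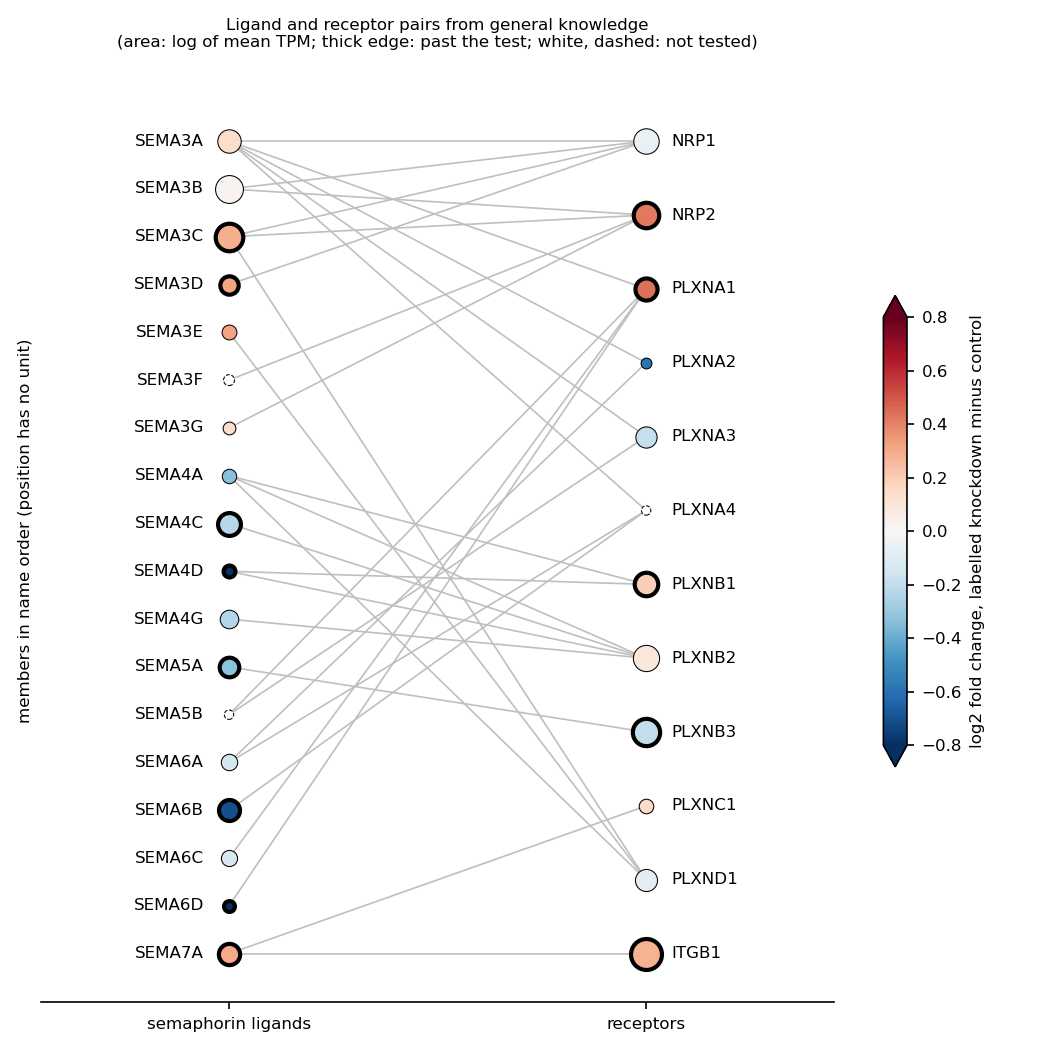
Semaphorins (left) joined to their receptors (right), coloured by log2 fold change (labelled knockdown minus control, colours saturate beyond the scale), with point area following the log of the mean TPM and thick edges for genes past the test. The blue ligands SEMA4D and SEMA6D are joined to the red receptors PLXNB1 and PLXNA1, SEMA3C to NRP2 with both red, and SEMA5A to PLXNB3 with both blue.

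The wider pathway was read from a list of 78 co-receptors, other ligands, cytoplasmic partners and processing enzymes. Of 65 tested, 19 rose, 9 fell and 37 did not pass, which is 43.1% past the test beside 23.3% of all genes. The count that rose was 12 without labelled knockdown replicate 2, and the count that fell was 5 without control replicate 3 and 17 without labelled knockdown replicate 1. In the same fits 1002 of all genes rose, and 932 and 2319 fell, against 1753 and 1577 with all 6 libraries. The median log2 fold change of the list was 0.05, beside -0.0038 for all genes. Of the 11 tested co-receptors and other receptors 5 rose and 2 fell, of 5 other ligands 2 rose and 2 fell, and of 44 cytoplasmic partners 11 rose and 5 fell.

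Of the L1-family adhesion molecules, partners of neuropilins in the response to SEMA3A, CHL1 and L1CAM fell and NRCAM rose. CHL1 went from 51.3 ± 4.13 to 23.2 ± 2.15 CPM, with a log2 fold change of -1.14, and L1CAM fell by 0.52, from 141.6 ± 5.13 to 98.6 ± 3.72 CPM (mean ± SD, n = 3; edgeR adjusted p = 1.57e-07 and 1.24e-05). NRCAM stood at 91.5 ± 4.90 and 106.9 ± 8.14 CPM (mean ± SD, n = 3), a log2 fold change of 0.23 whose call was kept only without control replicate 1 or labelled knockdown replicate 1 (adjusted p up to 0.142 in the other fits). DPYSL2, also called CRMP2, a cytoplasmic mediator of SEMA3A, fell by 0.58 from 117.3 ± 7.51 to 78.7 ± 2.61 CPM (mean ± SD, n = 3). Of the related genes, DPYSL3 rose by 0.24, a call lost in 3 of the 6 fits without a library (control replicate 2 or 3, labelled knockdown replicate 2), and DPYSL4 did not pass (-0.23). NRCAM, DPYSL3 and DPYSL4 were added to the named genes after their values were seen. Of the receptor tyrosine kinases that pair with B plexins, MET and ERBB2 rose, and MST1R, with at most 3 counts in a library, was not tested. MET, which also responds to HGF, rose by 0.36 from 85.0 ± 4.52 to 108.9 ± 7.40 CPM, and ERBB2 by 0.44 from 120.2 ± 4.18 to 163.1 ± 12.1 CPM (mean ± SD, n = 3; edgeR adjusted p = 0.00121 and 1.28e-04). The integrin subunits ITGA5 and ITGB1 rose, with log2 fold changes of 0.44 and 0.28, and so did the proteoglycan gene CSPG4, with 0.58.

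Ligands that share neuropilins with semaphorins went both ways. VEGFA, which binds NRP1, rose by 0.33 on the log2 scale. VEGFC, a ligand of NRP2, fell by 0.55 and PGF, a ligand of NRP1, fell by 0.56. PGF did not pass once control replicate 3 was left out (adjusted p = 0.0570). HGF rose by 0.54, a call lost without control replicate 1 or 2 and without labelled knockdown replicate 2 or 3 (adjusted p up to 0.114). In the cytoplasm FARP2, an exchange factor bound to A plexins, and the Ras-family gene MRAS rose by 0.44 and 0.42. The tyrosine kinase gene FER rose by 0.40, a call lost without control replicate 3 or labelled knockdown replicate 2 (adjusted p up to 0.0631).

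Fold change in these libraries moved with transcript length and GC content, and the members are long. Their lengths ran from 3472 to 15407 bp with a median of 6377 bp, against 2968 bp over all genes with a count. Among tested genes alone, the members had a median of 6628 bp, against 3592 bp. Their median GC content was 58.2%, against 49.7% for all genes tested. Across genes, which are not independent, fold change had a Spearman's rho of 0.30 with length (14315 genes) and of -0.26 with GC (13640 genes). The tested class 3 semaphorins had a median GC content of 44.5%, and classes 4 to 6 one of 57.2%. With offsets for length and GC, the median log2 fold change was 0.21 for class 3 and -0.28 for classes 4 to 6, beside 0.02 for all genes, and the 6 and 11 genes kept their signs. Of class 3, however, SEMA3A then lay near 0, at 0.0062 (edgeR adjusted p = 0.931), and only SEMA3B and SEMA3C passed. In that fit 15 members passed, where 32.3% of all genes did. Of the 14 members that passed without offsets 12 passed there too, SEMA3D and SEMA4C did not, and NRP1 (log2 fold change -0.11, adjusted p = 0.0423), PLXNA3 and SEMA3B were added.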

How the data were processed

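Each of the 6 libraries had 1 deposited table of 28265 gene symbols. Reads were made from total RNA with a stranded kit, per the labels' protocols, and FastQC, MultiQC, Trim Galore and HISAT2 are listed with hg19 in the submitters' processing notes. How reads were assigned to genes (program, strand setting, annotation) is not stated in those sources. Deposited counts give reads per gene in each library as whole numbers, not normalised, per the file headers. The authors' FPKM column served only to recover gene lengths, which came out whole (within 0.001 bp) for 100% of the 21754 genes with a count. Levels were compared between genes with the TPM values as deposited, which total 1000000 per library.

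Tests used edgeR 4.0.16 (R 4.3.3). Its filterByExpr kept 14315 genes and its TMM factors lay between 0.9945 and 1.005. The quasi-likelihood test (glmQLFit, glmQLFTest) compared the 2 groups in 1 model of the 6 libraries, and p-values were adjusted over every gene tested by Benjamini-Hochberg. Standard errors are the fold change divided by the square root of F, and intervals are 95% intervals. Gene length and GC offsets came from smooth trends per library (mgcv 1.9.3), with GC from GENCODE v29 transcripts for 95.3% of tested genes. No libraries of a group were duplicates: chi-square per degree of freedom between them ran from 1.95 to 8.54. Members, lists and the rule for named genes were chosen with earlier results of these data known, and the lists were compiled from general knowledge. The rule gave called members and the most abundant of each class with all 6 counts, and of the wider list the 12 largest called changes with MET, VEGFA and ITGB1. Exon overlaps are from GENCODE v29, on another build. On data simulated for this comparison, calls were made for 82 of 100 genes set to a 1.5-fold change and 87 of 100 set to 2-fold, with 8 false calls (14209 genes). The simulation changed far fewer genes than passed in the libraries, and held no trend with length or GC and no library that stood apart. The alternatives tried were other scalings and filters, DESeq2 1.42.0, limma-voom (limma 3.58.1), the replicate number as a block, the offsets, and leaving out each library.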

Additional observations from a re-analysis of the deposited data

How the results depend on the processing

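All 28 tested members kept their direction with other size factors, with the library total alone, without the low-count filter, with a mean CPM of at least 1 (27 members), with DESeq2, limma-voom, the replicate block and the length and GC offsets. Leaving out 1 library turned 4 members that did not pass. Over those fits the log2 fold change of NRP1 ran from -0.087 to 0.014 (above 0 without labelled knockdown replicate 1). That of SEMA3B ran from -0.037 to 0.073 (below 0 without control replicate 1 or labelled knockdown replicate 1), that of SEMA3G from -0.013 to 0.42 and that of SEMA6C from -0.28 to 0.055 (both turned without control replicate 3). Other size factors, the library total and limma-voom changed no member's call. With DESeq2 4 members rose and 5 fell, among them 1 ligand higher and 0 receptors lower, where 1397 of all genes rose and 1175 fell. TRIM25 stayed higher in all settings. With length and GC offsets 3 receptors were lower, and 2 when the replicate block was added. Over the fits without 1 library, members that rose numbered 3 to 7 and those that fell 4 to 9. Ligands that rose numbered 1 to 4 and those that fell 4 to 7, and receptors that fell 0 to 2. In the wider list 12 to 23 genes rose and 5 to 17 fell, and over all genes 930 to 2622 rose and 866 to 2319 fell. These fits have fewer libraries; the cause of the differences between them was not tested.

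The replicate numbers are not said to mark a shared day or culture. Same-numbered libraries did not deviate together (correlations of -0.19, 0.0082 and -0.22), and no library correlated best with its own number. With the replicate block 3 members rose and 4 fell (1 ligand higher, 4 ligands lower, 0 receptors lower), the same 7 genes that passed in every fit without 1 library, and over all genes 967 rose and 924 fell, against 1753 and 1577 without it. The rarest members, such as SEMA4D, SEMA6D and SEMA3F, are limited by depth.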
